A study of Homo sapiens with 60 samples.

Results

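The 7 insulin-like growth factor (IGF) binding protein genes IGFBP1 to IGFBP7 and the IGF receptor genes IGF1R and IGF2R were followed across SW1783 cells treated with water extracts of medicinal plants. These 9 genes were chosen by name, as members of these families, from the 60675 genes of the count table, with earlier results of these data known. All 9 were found and passed the filter on low counts. SW1783 is an established human astrocytoma line. The cells were kept for 24 h with an extract at 20, 100 or 500 µg/mL, or with 0.1% DMSO as the vehicle. The single-plant extracts were Paeonia (Paeoniae Radix), Angelica (Angelicae Gigantis Radix), Rehmannia (Rehmanniae Radix Preparata), Cnidium (Cnidii Rhizoma), Cinnamon (Cinnamomi Cortex) and Astragalus (Astragali Radix), and the formulas were Samul-tang and Sagunja-tang. There were 3 libraries at each dose of Rehmannia, Cnidium, Sagunja-tang, Cinnamon and Astragalus, 2 at each dose of Samul-tang, 1 at each dose of Paeonia and Angelica, and 3 vehicle libraries, which makes 60 libraries in 25 groups. Every group came from the same line, and the labels do not say whether replicates were separate cultures, so p-values measure only the spread between these samples.

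IGF1 and IGF2 are secreted growth factors that act through the receptor tyrosine kinase encoded by IGF1R, which signals through IRS adaptors, PI3K and AKT. IGFBP1 to IGFBP6 are secreted proteins that hold the growth factors outside the cell, and they can limit or prolong their access to the receptor. IGF2R, the cation-independent mannose 6-phosphate receptor, carries IGF2 and lysosomal enzymes to the lysosome and has no kinase. IGFBP1 is best known as a liver and decidua product that insulin represses, IGFBP3 as the main carrier of IGFs in blood, and IGFBP5 as a binding protein that attaches to extracellular matrix.

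Expected counts summed to 20604792 to 29609799 per library, and 22705 to 23990 genes had a count. Of 13 astrocyte and glioma markers, 5 had a median under 1 CPM, the count scaled by library total and TMM factor, namely GFAP, S100B, AQP4, SLC1A2 and ALDH1L1, while VIM averaged 5906 CPM and CD44 2773 CPM in vehicle. Also in this list, SLC1A3, SOX9, NES, GJA1, ALDOC and CLU averaged from 5.82 CPM (ALDOC) to 250 CPM (GJA1) in vehicle. The fibroblast gene COL1A1 averaged 4133 CPM in vehicle. Of 4 hepatocyte markers, ALB, APOA1 and TTR had medians under 1 CPM, with ALB at 0.0135 CPM in vehicle, and SERPINA1 averaged 7.8 CPM. The labels name the same batch, BatchB, for all 60 libraries. Still, the vehicle libraries carry another sample-code prefix than the extract libraries, and the labels give a DMSO level for vehicle alone. In comparisons with vehicle the treatment and the code set or solvent therefore cannot be told apart. Comparisons of 500 with 20 µg/mL stay within an extract and a code set. Replicate 1 of Sagunja-tang 20 µg/mL stood apart from its replicates, and results that rest on it are given with and without it.

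The members spanned a wide range of levels. Per kb of merged exons, IGFBP7 was the highest in vehicle at 996 ± 30.0 CPM per kb (SD, n = 3), followed by IGFBP4 at 165 ± 5.18, IGFBP3 at 136 ± 3.27 and IGFBP6 at 55.2 ± 2.58 CPM per kb. IGF2R came next at 17.8 ± 0.358 CPM per kb, above IGFBP1 at 12.5 ± 1.41 and IGFBP5 at 9.52 ± 0.304 CPM per kb. IGF1R had 2.25 ± 0.128 CPM per kb and IGFBP2 0.310 ± 0.0525 CPM per kb, where IGFBP2 had only 17 to 57 counts in a library. In vehicle no pair of neighbours in this order overlapped in mean ± SD, where the SD covers the spread between libraries and not the lengths used. Before division by length IGFBP3 was above IGFBP4 in vehicle (621 and 363 CPM). Their merged exons had 4571 and 2200 bases, so the order of these genes rests on the lengths. The shares below use the same lengths. IGFBP7 made up 70.4% to 75.8% of the summed RNA level per kb of IGFBP1 to IGFBP7 in the 60 libraries, IGFBP4 10.4% to 17.0%, IGFBP3 4.35% to 11.0%, and IGFBP1 0.610% to 2.40%. These are shares of RNA, and binding of IGFs was not measured. Without replicate 1 of Sagunja-tang 20 µg/mL, the highest IGFBP4 share was 14.9% and the lowest IGFBP3 share 6.67%. Over the 19 groups with replicates, and without that library, the highest group mean was 2.8 times the lowest for IGFBP1 (Samul-tang 500 over Samul-tang 20 µg/mL), 2.08 times for IGFBP5 (Samul-tang 500 over Cinnamon 500 µg/mL) and 1.14 times for IGFBP7 (Sagunja-tang 100 over Samul-tang 500 µg/mL).

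**Figure D1:**
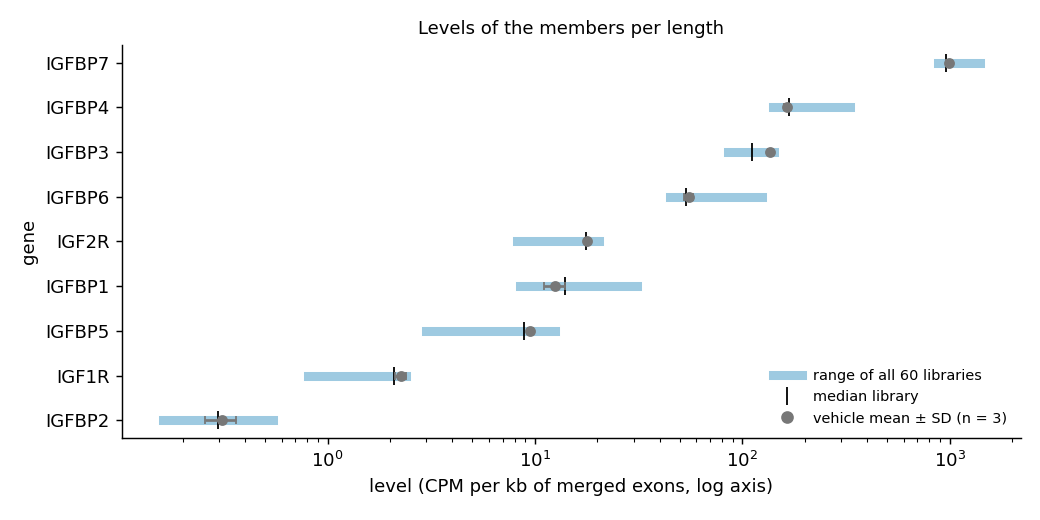
Levels of the 9 genes in CPM per kb of merged exons on a log axis. Bars span all 60 libraries, ticks mark the median library, and grey points show the vehicle mean ± SD (n = 3), with IGFBP7 at 996 and IGFBP2 at 0.310 CPM per kb at the ends of the order.

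Read overlap limits 2 of these levels. IGFBP7 (ENSG00000163453) lies on chromosome 4 at 57030773 to 57110385 and shares part of that region with POLR2B on the opposite strand, which had a mean of 41200 counts. IGF2R holds the pseudogene CHP1P2 on its own strand, with a mean of 112 counts. The libraries were directional, but the sources used here do not give the strand setting of the counting, so reads of IGFBP7 and POLR2B may not have been told apart.

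At 500 µg/mL, 4 of the 9 genes changed against vehicle in at least 1 of the 6 replicated extracts. IGFBP1 rose in 5 extracts, IGFBP3 fell in 5, IGFBP5 fell in 2 and IGF1R fell in 1, which makes 13 calls (5 higher, 8 lower) among 54 gene-by-extract tests. Calls were made at an adjusted p under 0.05 with edgeR's quasi-likelihood test and Benjamini-Hochberg adjustment over all 17516 genes tested, in 1 fit of the 54 replicated libraries unless another setting is named, and over all genes the same rule called 8.65% of the tests (4.18% higher, 4.47% lower). By extract, 3 members were called with Cinnamon, where 22.5% of all genes were, 3 with Sagunja-tang (17.0% of all genes), 2 with Samul-tang (4.12%), 2 with Rehmannia (2.46%), 2 with Cnidium (1.32%) and 1 with Astragalus (4.4%). The median log2 change over the 9 members was -0.09 to -0.06, and over all genes -0.01 to 0.00.

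At 100 µg/mL there were 4 calls (1 higher, 3 lower) in 54 tests, against 2.57% over all genes (1.19% higher, 1.38% lower). They were 2 with Cinnamon (2.2% of all genes), 1 with Sagunja-tang (6.1%) and 1 with Samul-tang (1.91%), and the other extracts, Astragalus (4.22%), Rehmannia (0.714%) and Cnidium (0.245%), had none by edgeR. In these 3 extracts 4 tests had an unadjusted p under 0.05, IGFBP3 in each and IGFBP1 with Rehmannia, and DESeq2 called IGFBP3 with Astragalus and IGFBP1 with Rehmannia. At 20 µg/mL there were 8 (2 higher, 6 lower), against 5.17% over all genes (2.79% higher, 2.37% lower). Of these 8, 5 came from Sagunja-tang with the library that stood apart (22.0% of all genes), and 1 each from Astragalus (3.85%), Samul-tang (2.76%) and Cinnamon (1.08%), with none from Rehmannia (0.885%) or Cnidium (0.377%) by edgeR, where DESeq2 called IGFBP3 in both and it was the 1 member with an unadjusted p under 0.05. The vehicle libraries are shared by all 18 of these comparisons.

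IGFBP1 (ENSG00000146678; chromosome 7, 45888357 to 45893668, plus strand, GRCh38) had the largest rises. With Rehmannia 500 µg/mL its libraries had 46.3, 49.4 and 43.8 CPM, against 21.9, 22.1 and 18 CPM in vehicle. All 3 Rehmannia libraries lay above all 3 vehicle libraries, a 2.25-fold rise (log2 1.17 ± 0.12, SE, adjusted p = 3.53e-09 by edgeR). Samul-tang 500 µg/mL gave 50.2 and 44.6 CPM, again clear of vehicle, for a 2.29-fold rise (log2 1.20 ± 0.13, adjusted p = 2.16e-08 by edgeR). Cinnamon 500 µg/mL gave 47.5, 43.3 and 41.2 CPM, a 2.13-fold rise (log2 1.09 ± 0.12, adjusted p = 1.02e-09 by edgeR). The libraries of these 3 extracts overlapped each other.

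The other extracts moved IGFBP1 less. Cnidium 500 µg/mL gave 28.9, 29.6 and 27.0 CPM (log2 0.46 ± 0.12, adjusted p = 0.0312 by edgeR), and leaving out any 1 of its 3 libraries or of the 3 vehicle libraries ended this call, at adjusted p = 0.0636 to 0.239. Sagunja-tang 500 µg/mL gave 27.8, 27.6 and 26.3 CPM (log2 0.40 ± 0.12, adjusted p = 0.0151), with adjusted p = 0.12 without vehicle replicate 3. Astragalus 500 µg/mL gave 14.0, 16.5 and 20.8 CPM, which overlapped vehicle (log2 -0.28 ± 0.12, adjusted p = 0.229), though without its replicate 3 the gene was called lower at adjusted p = 0.0475. Among the extracts with 1 library a dose, Paeonia 500 µg/mL had 51.6 CPM (exact Poisson 95% interval 48.9 to 54.4, counting error only), the highest value of the 60 libraries, and Angelica 500 µg/mL had 24.7 CPM (22.8 to 26.6). Set against the vehicle mean these are log2 ratios of CPM + 1 of 1.28 and 0.24, with no test. With Paeonia 500 µg/mL, 34 of 17516 genes had a log2 ratio beyond 1 in either direction.

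In Rehmannia, Samul-tang and Cinnamon the rise grew with dose. Within Rehmannia, IGFBP1 had 21.0, 20.5 and 21.4 CPM at 20 µg/mL, 28.5, 26.7 and 27.7 CPM at 100 µg/mL, and the values above at 500 µg/mL. No library of a dose overlapped another dose. Samul-tang had 17.6 and 16.2 CPM at 20 µg/mL and 25.2 and 24.1 CPM at 100 µg/mL. Cinnamon had 23.2, 25.8 and 23.9 CPM at 20 µg/mL and 35.0, 32.5 and 31.3 CPM at 100 µg/mL. In both, the 3 doses were again separate. Paeonia had 16.3, 23.8 and 51.6 CPM in the single libraries at 20, 100 and 500 µg/mL. Cnidium averaged 20.2, 22.2 and 28.5 CPM at these doses, and Sagunja-tang 20.9 (18.4 without replicate 1), 20.0 and 27.2 CPM. In both, libraries at 20 and 100 µg/mL overlapped. Astragalus averaged 18.6, 19.3 and 17.1 CPM.

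Set against 20 µg/mL of the same extract, IGFBP1 at 500 µg/mL rose 2.80-fold with Samul-tang (log2 1.48 ± 0.14, adjusted p = 7.15e-09), 2.22-fold with Rehmannia (1.15 ± 0.12, adjusted p = 6.29e-09) and 1.81-fold with Cinnamon (0.86 ± 0.12, adjusted p = 2.23e-07), all by edgeR. For Sagunja-tang the rise was 1.31-fold (log2 0.38 ± 0.12, adjusted p = 0.0205), and it was 0.56 in log2 at adjusted p = 0.000905 without Sagunja-tang 20 µg/mL replicate 1, but adjusted p was 0.053 to 0.0627 without replicate 3 of that group or without replicate 1 or 2 at 500 µg/mL, and 0.768 with only the compared groups in the fit. Cnidium missed the threshold (log2 0.50 ± 0.12, adjusted p = 0.0575). It passed without Cnidium 20 µg/mL replicate 1 (adjusted p = 0.0272) or without Sagunja-tang 20 µg/mL replicate 1 (adjusted p = 0.00552). Astragalus gave log2 -0.12 ± 0.12. In all, 9 of 54 tests of the 9 genes between 500 and 20 µg/mL were called (5 higher, 4 lower), against 7.36% over all genes (3.19% higher, 4.17% lower). They were 4 with Sagunja-tang (20.6% of all genes), 3 with Cinnamon (21.5%), 1 with Rehmannia (0.805%) and 1 with Samul-tang (0.725%), with none for Astragalus (0.285%) or Cnidium (0.228%) by edgeR. IGFBP1 with Cnidium was the 1 test of these 2 extracts with an unadjusted p under 0.05, and DESeq2 called it.

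**Figure D2:**
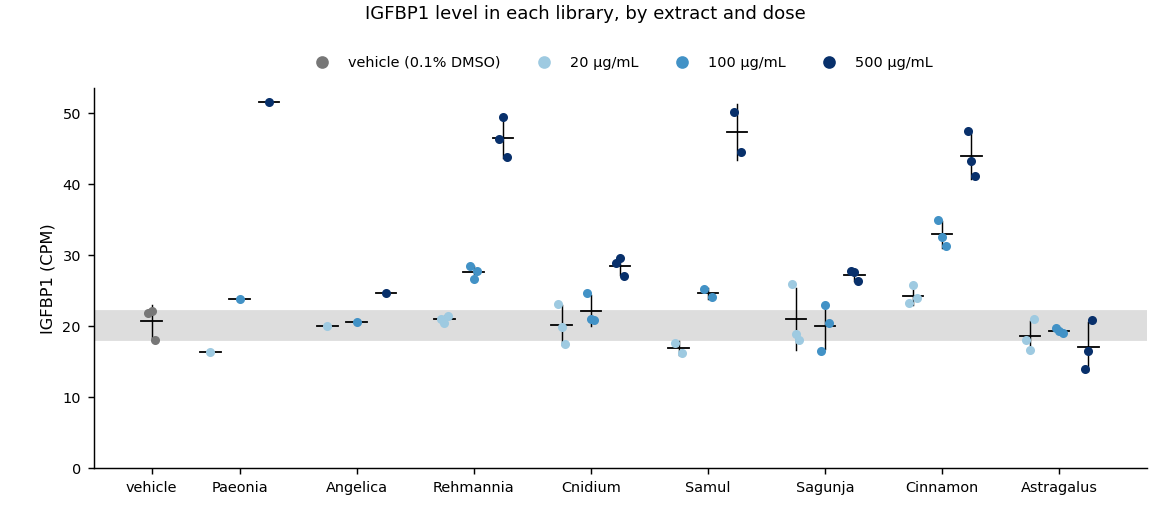
IGFBP1 level (CPM) in each of the 60 libraries, with vehicle at the left and, for each extract, 20, 100 and 500 µg/mL from left to right. Points are libraries, black lines the group mean ± SD where there are replicates, and the grey band the vehicle range of 18 to 22.1 CPM; the 500 µg/mL points of Paeonia, Rehmannia, Samul-tang and Cinnamon lie between 41.2 and 51.6 CPM.

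At 100 µg/mL IGFBP1 was called against vehicle in 1 of the 6 extracts, Cinnamon (1.59-fold higher, log2 0.67 ± 0.12, adjusted p = 0.000312 by edgeR). Rehmannia 100 µg/mL did not overlap vehicle but missed the threshold (log2 0.42 ± 0.12, adjusted p = 0.0892, and 0.0104 without Sagunja-tang 20 µg/mL replicate 1). At 20 µg/mL the log2 change of IGFBP1 lay between -0.29 and 0.24, and none was called by edgeR on all groups or by DESeq2, with 1 of the 6 tests at an unadjusted p under 0.05. Samul-tang 20 µg/mL was called lower with only the compared groups in the fit (log2 -0.28, adjusted p = 0.0129).

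Samul-tang is traditionally made from Rehmannia, Angelica, Cnidium and Paeonia, so its levels are given beside theirs, although at equal extract concentration the formula holds less of each plant. At 500 µg/mL IGFBP1 averaged 47.4 CPM with Samul-tang, 46.5 CPM with Rehmannia and 28.5 CPM with Cnidium, and it was at 51.6 CPM in the Paeonia library and 24.7 CPM in the Angelica library. At 20 µg/mL the same extracts gave 16.9, 21.0, 20.2, 16.3 and 20.0 CPM. IGFBP3 averaged 445 CPM with Samul-tang 500 µg/mL, 510 CPM with Rehmannia and 504 CPM with Cnidium, against 409 CPM in the Paeonia library and 478 CPM in the Angelica library. These values come from different code sets and were not tested against each other.

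IGFBP3 (ENSG00000146674; chromosome 7, 45912245 to 45921874, minus strand, GRCh38) neighbours IGFBP1 and went the other way. With Cinnamon 500 µg/mL it had 414, 419 and 398 CPM, against 625, 633 and 604 CPM in vehicle. The groups were well apart, and the fall was 1.51-fold (log2 -0.60 ± 0.07, adjusted p = 1.07e-08 by edgeR). Samul-tang 500 µg/mL gave 442 and 448 CPM (log2 -0.48 ± 0.08, adjusted p = 9.16e-05). The falls with Astragalus (567, 479 and 453 CPM; log2 -0.31 ± 0.07), Cnidium (514, 501 and 497 CPM; -0.30 ± 0.07) and Rehmannia (503, 511 and 515 CPM; -0.28 ± 0.07) were smaller, at adjusted p = 0.0042, 0.0167 and 0.0166. Sagunja-tang was the exception, with 649, 636 and 648 CPM, each above every vehicle library (log2 0.05, not called).

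The weaker of these calls depended on single libraries. Astragalus lost its call without its replicate 3 (adjusted p = 0.0701). Cnidium lost it without vehicle replicate 1 or 2 or any 1 of its own libraries (adjusted p = 0.0517 to 0.0896), and Rehmannia without the same vehicle replicates or any 1 of its own (adjusted p = 0.0719 to 0.0831). With only the compared groups in the fit Astragalus was at adjusted p = 0.0652, without the low-count filter Cnidium was at 0.104 and Rehmannia at 0.117, and scaled by library size alone Rehmannia was at 0.0739. All 16 libraries at 500 µg/mL other than Sagunja-tang were below the lowest vehicle library, with a range of 398 to 567 CPM and a median of 478 CPM.

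Unlike IGFBP1, IGFBP3 was already below vehicle at 20 µg/mL. All 19 extract libraries at that dose lay below the vehicle range, from 390 to 561 CPM with a median of 501 CPM. It was called lower with Sagunja-tang (390, 491 and 472 CPM; log2 -0.46 ± 0.07, adjusted p = 4.06e-05), Samul-tang (-0.37 ± 0.08, adjusted p = 0.00523), Astragalus (-0.31 ± 0.07, adjusted p = 0.00602) and Cinnamon (-0.30 ± 0.07, adjusted p = 0.0167), by edgeR. The Sagunja-tang value was -0.35 without replicate 1 of that group (adjusted p = 0.000332), and adjusted p was 0.747 with only the compared groups in the fit. Samul-tang lost its call without either of its libraries (adjusted p = 0.115 and 0.152), Astragalus without its replicate 3 (adjusted p = 0.0662), and Cinnamon without its replicate 2 or 3 or vehicle replicate 1 or 2 (adjusted p = 0.0817 to 0.177) or without the low-count filter (0.115). Rehmannia and Cnidium at 20 µg/mL were at log2 -0.24 and -0.25, not called, but without Sagunja-tang 20 µg/mL replicate 1 they were called at adjusted p = 0.0124 and 0.0171. With only the compared groups in the fit they were called at adjusted p = 8.02e-05 and 0.000108 by edgeR. All of these libraries carry other code prefixes than vehicle, so set or solvent cannot be told apart from the extracts in the lower level of IGFBP3. At 100 µg/mL it was called lower with Cinnamon (-0.34 ± 0.07, adjusted p = 0.00337) and Samul-tang (-0.28 ± 0.08, adjusted p = 0.0463). Leaving out any 1 of the 3 vehicle or 2 Samul-tang libraries ended the Samul-tang call (adjusted p = 0.0855 to 0.409), as did library size alone (0.126) and no low-count filter (0.232). Astragalus 100 µg/mL was at log2 -0.23, called only without its replicate 1 (adjusted p = 0.034) or Sagunja-tang 20 µg/mL replicate 1 (adjusted p = 0.0077) among the leave-outs. It was also called with a replicate block (0.0459) and with only the compared groups in the fit (0.00795). In fits of only the compared groups, Rehmannia and Cnidium 100 µg/mL were called lower too (adjusted p = 5.79e-05 and 0.000441 by edgeR).

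Within extracts, IGFBP3 moved with dose in 2 of 6. It fell with Cinnamon at 500 against 20 µg/mL (414, 419 and 398 CPM, against 561, 480 and 471 CPM; log2 -0.30 ± 0.07, adjusted p = 0.00154 by edgeR). It rose with Sagunja-tang (649, 636 and 648 CPM, against 390, 491 and 472 CPM; log2 0.52 ± 0.07, adjusted p = 8.34e-07), and by 0.42 at adjusted p = 3.63e-06 without the 20 µg/mL replicate 1. With only the compared groups in the fit, that replicate included, the Sagunja-tang call was lost (log2 0.51, adjusted p = 0.567). In both extracts the doses did not overlap. For the other 4 extracts the log2 change was between -0.11 and 0.00.

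The sequences just before the RefSeq starts of IGFBP3 and IGFBP5 are shown because both genes fell with Cinnamon 500 µg/mL, while with Sagunja-tang 500 µg/mL IGFBP5 fell and IGFBP3 was not called. They are the 240 bases from 250 to 11 bases before the RefSeq transcription start in GRCh38.p14, read 5′ to 3′ on the gene's strand, at chr7:45921283-45921522 (minus strand) for IGFBP3 and chr2:216695560-216695799 (minus strand) for IGFBP5. The IGFBP3 window lies inside the GENCODE span of the gene given above, which begins farther upstream than the RefSeq start. Capitals mark matches to a pair of motifs, each searched on both strands. TATNTA resembles the TATA box. The core bound by the aryl hydrocarbon receptor is GCGTG.
IGFBP3: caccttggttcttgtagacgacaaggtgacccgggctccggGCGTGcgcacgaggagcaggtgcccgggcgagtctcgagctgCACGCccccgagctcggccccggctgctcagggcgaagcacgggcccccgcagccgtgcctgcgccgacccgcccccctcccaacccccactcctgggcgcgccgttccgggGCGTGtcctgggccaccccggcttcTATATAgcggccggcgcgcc
IGFBP5: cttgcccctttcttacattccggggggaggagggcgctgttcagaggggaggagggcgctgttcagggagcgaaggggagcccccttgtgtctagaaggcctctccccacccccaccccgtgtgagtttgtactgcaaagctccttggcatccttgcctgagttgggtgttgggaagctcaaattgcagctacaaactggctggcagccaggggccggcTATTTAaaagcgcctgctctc

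Both windows held 1 TATNTA match, starting 30 bases before the start in IGFBP3 and 31 in IGFBP5, and IGFBP3 held 3 GCGTG matches, 209, 167 and 55 bases before it, where IGFBP5 held none. Of 35093 RefSeq windows of the same length, 19.7% held TATNTA and 31.2% GCGTG. The 5 other members with a window (7 of the 9 matched) held no TATNTA. The IGF1R window had GCGTG as well (4 matches), as had 1 of the 3 windows of IGFBP2 (1 match). The core bound by hypoxia-inducible factors, ACGTG, was also searched (17.7% of all windows), and had 6 matches in IGF2R, 1 in IGF1R and none in the other windows. Letters of insulin response elements, CAAAANA (14.6% of all windows), had 1 match in IGF1R and none in the other windows. A match to such short letters is a description of the sequence, and no binding was measured.

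IGFBP5 (ENSG00000115461; chromosome 2, 216672105 to 216695525, minus strand, GRCh38) lies next to IGFBP2. It fell with 2 extracts at 500 µg/mL. Cinnamon gave 38.0, 35.6 and 33.7 CPM, against 63.3, 59.4 and 61.2 CPM in vehicle, a 1.71-fold fall (log2 -0.78 ± 0.15, adjusted p = 0.000165 by edgeR). Sagunja-tang gave 40.7, 34.0 and 41.7 CPM, a 1.58-fold fall (log2 -0.66 ± 0.15, adjusted p = 0.00178). Both groups were clear of vehicle. Samul-tang and Rehmannia lay on the other side, with 70.8 and 77.9 CPM and with 72.4, 65.9 and 73.7 CPM, each library above every vehicle library. Their log2 changes of 0.28 and 0.20 were not called, but Samul-tang was called without Sagunja-tang 20 µg/mL replicate 1 (log2 0.29, adjusted p = 0.0206), and both were called with only the compared groups in the fit (adjusted p = 0.00705 with Samul-tang and 0.00173 with Rehmannia). Paeonia 500 µg/mL had 80.6 CPM (exact Poisson 95% interval 77.2 to 84.0), the highest of the 60 libraries.

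The dose courses of IGFBP5 with Cinnamon and Sagunja-tang come from different code sets and were not tested against each other. With Cinnamon IGFBP5 had 60.1, 54.9 and 52.1 CPM at 20 µg/mL and 55.5, 53.0 and 45.6 CPM at 100 µg/mL before the values above. The first 2 doses overlapped and the high dose was clear of both (500 against 20 µg/mL, log2 -0.64 ± 0.15, adjusted p = 0.00182 by edgeR). With Sagunja-tang the libraries had 19.3, 50.6 and 46.0 CPM at 20 µg/mL and 46.8, 41.0 and 42.4 CPM at 100 µg/mL, all below vehicle. The calls against vehicle at these doses were log2 -0.66 ± 0.15 at 20 µg/mL (adjusted p = 0.00313) and -0.50 ± 0.15 at 100 µg/mL (adjusted p = 0.0403). The 20 µg/mL value was -0.33 without its replicate 1 (adjusted p = 0.0178), and with only the compared groups in the fit, that replicate included, its adjusted p was 0.747. The 100 µg/mL call was lost without any 1 vehicle library or without its own replicate 2 or 3 (adjusted p = 0.0773 to 0.159), with library size alone (0.0639) and without the low-count filter (0.143). Sagunja-tang 500 against 20 µg/mL was log2 0.00 with all libraries and -0.31 (adjusted p = 0.0308) without that replicate 1. Samul-tang 500 against 20 µg/mL had 70.8 and 77.9 CPM, against 50.4 and 55.0 CPM. These did not overlap, but log2 0.50 passed the threshold only without Sagunja-tang 20 µg/mL replicate 1 (adjusted p = 0.00145) among the leave-outs, as did Rehmannia (log2 0.27, adjusted p = 0.0484).

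**Figure D3:**
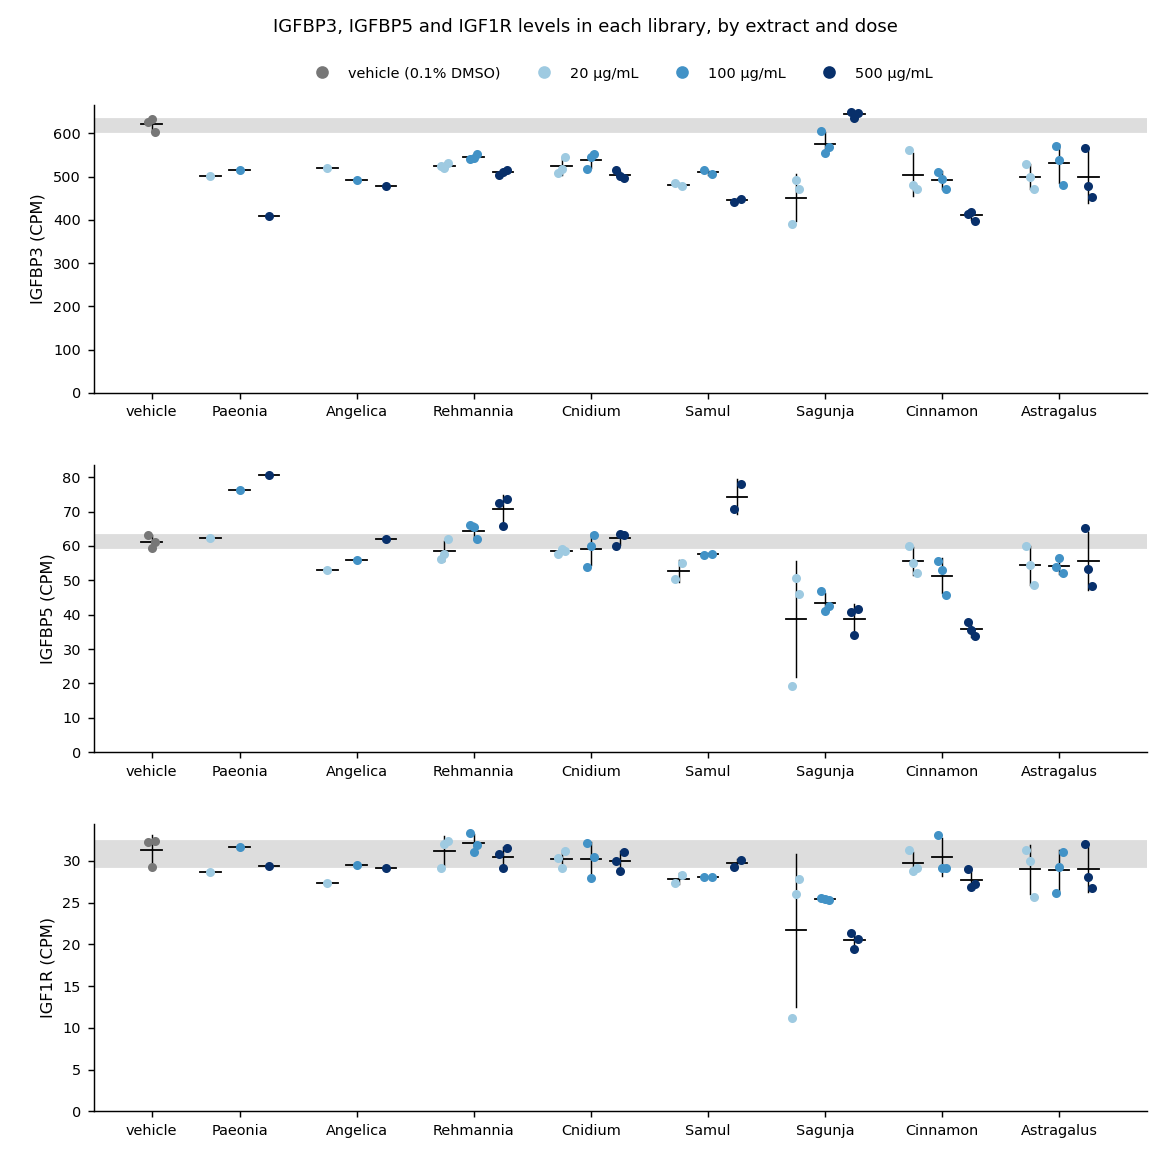
IGFBP3, IGFBP5 and IGF1R levels (CPM) in each library, with vehicle at the left and 20, 100 and 500 µg/mL from left to right within each extract. Points are libraries, black lines group means ± SD and grey bands the vehicle ranges; IGFBP3 at 20 µg/mL is at 390 to 561 CPM in the extract libraries, below all vehicle libraries, and IGF1R at 500 µg/mL is lowest with Sagunja-tang at 19.5 to 21.4 CPM.

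IGF1R (ENSG00000140443; chromosome 15, 98648539 to 98964530, plus strand, GRCh38), the signalling receptor, fell with Sagunja-tang. At 500 µg/mL its libraries had 21.4, 19.5 and 20.7 CPM, against 32.3, 29.3 and 32.4 CPM in vehicle, a 1.52-fold fall (log2 -0.61 ± 0.14, adjusted p = 0.00142 by edgeR). The 100 µg/mL libraries had 25.6, 25.4 and 25.3 CPM, also below vehicle (log2 -0.30, not called, but adjusted p = 0.00254 without Sagunja-tang 20 µg/mL replicate 1). At 20 µg/mL they had 11.2, 26.0 and 27.8 CPM, and the call there (log2 -0.52 ± 0.14, adjusted p = 0.00737) was lost without replicate 1 (log2 -0.20, adjusted p = 0.0707) and with only the compared groups in the fit (0.747). Without that library IGF1R was lower at 500 than at 20 µg/mL (log2 -0.38, adjusted p = 0.000455), which with all libraries was -0.09 and not called. The other 5 replicated extracts gave log2 changes of -0.18 to -0.04 at 500 µg/mL, with no call by edgeR on all groups or by DESeq2 and no unadjusted p under 0.05. Cinnamon was called lower with only the compared groups in the fit (log2 -0.16, adjusted p = 0.0485).

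IGF2R (ENSG00000197081; chromosome 6, 159969099 to 160113507, plus strand, GRCh38) was called in none of the 30 comparisons by edgeR on all groups or by DESeq2, and no unadjusted p was under 0.05. With Cinnamon 500 µg/mL it had 357, 362 and 333 CPM, each above 317, 312 and 325 CPM in vehicle (log2 0.14). Without Sagunja-tang 20 µg/mL replicate 1 it was called higher with Cinnamon against vehicle (log2 0.16, adjusted p = 0.0149) and against Cinnamon 20 µg/mL (0.15, adjusted p = 0.0293). With only the compared groups in the fit it was called higher with Cinnamon 500 µg/mL (adjusted p = 0.00941) and Samul-tang 20 µg/mL (log2 0.11, adjusted p = 0.00379) against vehicle. In the other extracts at 500 µg/mL the log2 change lay between -0.09 and -0.04.

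IGFBP2, IGFBP4, IGFBP6 and IGFBP7 had no call at 500 or 100 µg/mL against vehicle, by edgeR on all groups or by DESeq2, and none of these tests had an unadjusted p under 0.05. At 500 µg/mL their log2 changes ran from -0.10 to 0.04 for IGFBP2, from -0.15 to 0.11 for IGFBP4, from -0.19 to -0.03 for IGFBP6 and from -0.15 to 0.00 for IGFBP7. IGFBP4 (chromosome 17, 40443461 to 40457731, plus strand), a binding protein that inhibits IGF action and is cut by the protease PAPPA, was called lower with Sagunja-tang 500 µg/mL only without Sagunja-tang 20 µg/mL replicate 1 among the leave-outs (333, 340 and 307 CPM, against 356, 377 and 357 CPM; log2 -0.13, adjusted p = 0.0435), and likewise at 100 µg/mL (log2 -0.15, adjusted p = 0.0447). With only the compared groups in the fit, IGFBP4 was called lower with Sagunja-tang at 500 and 100 µg/mL (adjusted p = 0.00385 and 0.042) and higher with Rehmannia 500 µg/mL (log2 0.13, adjusted p = 0.0136) and Cnidium 500 µg/mL (0.11, adjusted p = 0.0156). IGFBP6 (chromosome 12, 53097436 to 53102345, plus strand), which prefers IGF2, had 63.1 and 66.9 CPM with Samul-tang and 63.8, 71.4 and 60.3 CPM with Rehmannia at 500 µg/mL, against 71.3, 78.1 and 73.6 CPM in vehicle. IGFBP2 (chromosome 2, 216632828 to 216664436, plus strand) was near the floor of detection at 0.768 to 2.60 CPM, where a modest change was not detectable at this depth.

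The library that stood apart, replicate 1 of Sagunja-tang 20 µg/mL, lay outside the range of the other 59 libraries in 8 of the 9 genes. The share of all genes outside the range in it was not counted. It stood apart over genes at large as well. Its median ratio of squared count difference to counting variance was 41.9 and 43.3 to replicates 2 and 3, against 1.03 between those. Replicate 1 had 730 CPM of IGFBP4, against 307 to 427 CPM in the other libraries, 168 CPM of IGFBP6 against 60.3 to 88.3, and 2695 CPM of IGFBP7 against 1700 to 2100. It had 2.60 CPM of IGFBP2 against 0.768 to 2.14. IGFBP5, IGF1R, IGF2R and IGFBP3 were lower in it than elsewhere, at 19.3, 11.2, 146 and 390 CPM, against lowest other values of 33.7, 19.5, 271 and 398 CPM. The calls of IGFBP4 (log2 0.37 ± 0.13, adjusted p = 0.0367) and IGFBP6 (0.49 ± 0.15, adjusted p = 0.0208) with Sagunja-tang 20 µg/mL against vehicle rested on it, and without it the values were -0.07 (adjusted p = 0.467) and -0.02 (adjusted p = 0.916). They were also lost without any 1 vehicle library for IGFBP4 (adjusted p = 0.065 to 0.104) and without vehicle replicate 1 or 3 for IGFBP6 (adjusted p = 0.0637 and 0.0774), and both without the low-count filter (0.119 and 0.0747) and with only the compared groups in the fit (0.754 and 0.747). Likewise the falls of IGFBP4 (-0.53) and IGFBP6 (-0.56) at 500 against 20 µg/mL were -0.06 (adjusted p = 0.662) and -0.03 (adjusted p = 0.901) without it. Both falls were at adjusted p = 0.768 with only the compared groups in the fit. The IGFBP6 fall was lost as well without Sagunja-tang 500 µg/mL replicate 1 or 3. With replicate 3 left out in place of replicate 1, IGF2R was called lower (log2 -0.47, adjusted p = 0.00513) and IGFBP7 higher (0.25, adjusted p = 0.0147) against vehicle, and without replicate 2 IGF2R was at -0.36 (adjusted p = 0.0473).

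**Figure D4:**
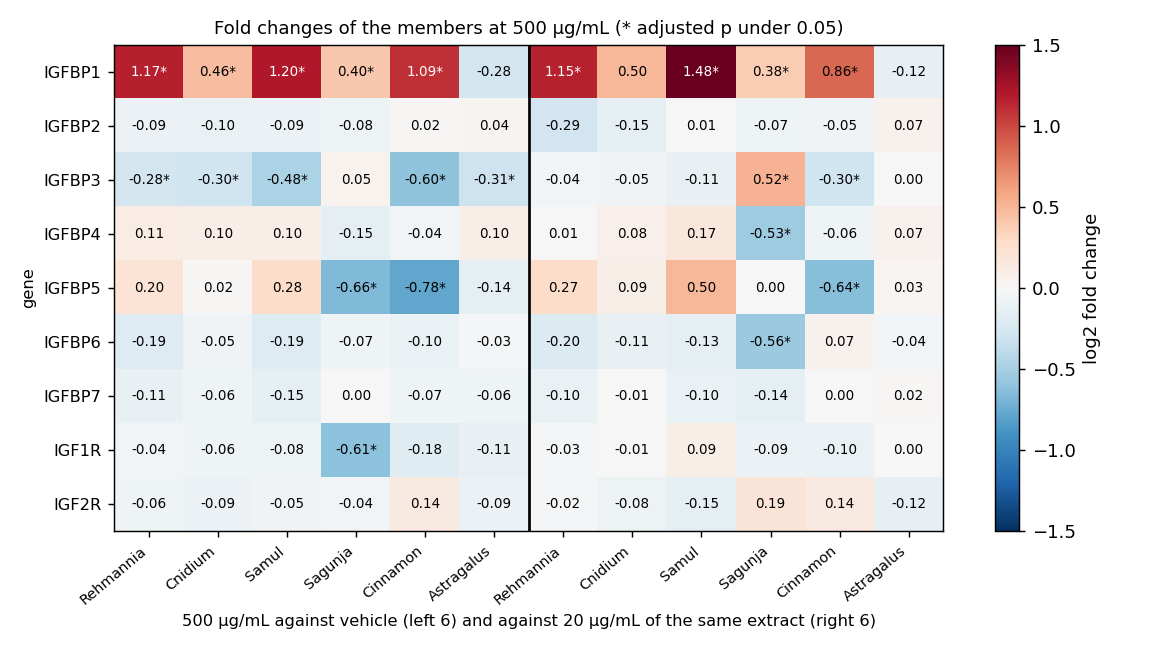
Log2 fold changes of the 9 genes (rows) at 500 µg/mL for the 6 replicated extracts, against vehicle in the left block and against 20 µg/mL of the same extract in the right block, with asterisks at adjusted p under 0.05 by edgeR. IGFBP1 is higher with asterisks in 5 of 6 columns at the left, and the asterisks of IGFBP4 and IGFBP6 with Sagunja-tang at the right were lost without the library that stood apart.

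Extracts of the same code set were compared with each other at 500 µg/mL, and 8 of 27 tests of the 9 genes were called (3 higher, 5 lower), against 12.0% over all genes (5.75% higher, 6.28% lower). Cinnamon and Astragalus differed in 3 members, where 27.5% of all genes were called. IGFBP1 had 47.5, 43.3 and 41.2 CPM with Cinnamon, against 14.0, 16.5 and 20.8 CPM with Astragalus (log2 1.37 ± 0.12, adjusted p = 2.39e-12 by edgeR). IGFBP5 was lower with Cinnamon (38.0, 35.6 and 33.7 CPM, against 65.1, 53.4 and 48.4 CPM; log2 -0.64 ± 0.15, adjusted p = 0.0014), and so was IGFBP3 (-0.28 ± 0.07, adjusted p = 0.00177, but 0.0584 without Astragalus 500 µg/mL replicate 1). No group overlapped its partner in these 3 genes, and the share of all genes without overlap was not counted. Without Sagunja-tang 20 µg/mL replicate 1, IGF2R was also called higher with Cinnamon and IGFBP4 lower (log2 0.24 and -0.13, adjusted p = 0.000252 and 0.0393).

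Rehmannia and Cnidium differed in 1 member, IGFBP1, where 0.263% of all genes were called. IGFBP1 had 46.3, 49.4 and 43.8 CPM with Rehmannia, against 28.9, 29.6 and 27.0 CPM with Cnidium (log2 0.71 ± 0.11, adjusted p = 0.000347 by edgeR). The formulas differed in 4 members, where 8.36% of all genes were called. With Sagunja-tang against Samul-tang, IGFBP1 was lower (27.8, 27.6 and 26.3 CPM, against 50.2 and 44.6 CPM; log2 -0.80 ± 0.13, adjusted p = 9.98e-06). IGFBP3 was higher (649, 636 and 648 CPM, against 442 and 448 CPM; log2 0.54 ± 0.08, adjusted p = 3.5e-06). IGFBP5 was lower (40.7, 34.0 and 41.7 CPM, against 70.8 and 77.9 CPM; log2 -0.94 ± 0.17, adjusted p = 8.71e-05), as was IGF1R (log2 -0.53 ± 0.15, adjusted p = 0.0191). The IGF1R call was lost without either Samul-tang library or Sagunja-tang 500 µg/mL replicate 2 (adjusted p = 0.0777 to 0.174), and without the low-count filter (0.0536). Without Sagunja-tang 20 µg/mL replicate 1, IGFBP4 was also called lower (log2 -0.25, adjusted p = 0.00142).

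The change from 20 to 500 µg/mL was itself set between extracts of the same code set, and it differed in 5 of 27 tests of the 9 genes, against 5.76% over all genes. The dose effects of IGFBP1, IGFBP3 and IGFBP5 differed between Cinnamon and Astragalus (14.4% of all genes), and those of IGFBP1 and IGFBP3 between Sagunja-tang and Samul-tang (2.88%). The Sagunja-tang and Samul-tang differences were lost with only the compared groups in the fit (adjusted p = 0.395 for IGFBP1 and 0.724 for IGFBP3). None was called between Rehmannia and Cnidium by edgeR on all groups or by DESeq2 (0.04% of all genes), with IGFBP1 the 1 member of 9 at an unadjusted p under 0.05.

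The other genes of the IGF pathway were read from fixed lists. Of 8 ligands and other receptors, IGF1, IGF2, INS, INSRR and IGFALS had medians under 1 CPM, with IGF2 at 0.254 CPM in vehicle, and the insulin receptor gene INSR was at 17.0 CPM. None of the 4 of them that passed the filter was called by edgeR at 500 µg/mL against vehicle, with 1 of 24 tests at an unadjusted p under 0.05. Of 18 genes for proteases that cut binding proteins and for their regulators, 3 rose and 5 fell with Cinnamon, 3 rose and 4 fell with Sagunja-tang, 4 fell with Astragalus, 1 rose and 3 fell with Samul-tang, 1 rose and 1 fell with Rehmannia, and 1 fell with Cnidium. Over all genes the shares called were 22.5%, 17.0%, 4.4%, 4.12%, 2.46% and 1.32% in these extracts in the same order. The list medians ran from -0.10 to 0.02, and those of all genes from -0.01 to 0.00. PAPPA, the metalloprotease that cuts IGFBP4 and IGFBP5, rose with Sagunja-tang to 140 ± 12.7 CPM, against 87.2 ± 6.16 CPM in vehicle (log2 0.69 ± 0.12, adjusted p = 3.97e-05 by edgeR). It fell with Cinnamon to 61.5 ± 1.17 CPM (-0.50 ± 0.12, adjusted p = 0.00161). STC2, an inhibitor of PAPPA, rose with Rehmannia to 762 ± 21.1 CPM and fell with Astragalus to 312 ± 6.81 CPM, against 546 ± 16.3 CPM in vehicle (log2 0.48 and -0.81, adjusted p = 2.98e-10 and 3.15e-17). The urokinase gene PLAU fell with Cinnamon (60.5 ± 3.88 CPM, against 137 ± 0.355 CPM; -1.18 ± 0.05).

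Of 30 genes of IGF1R signalling, 1 rose and 11 fell with Sagunja-tang 500 µg/mL (list median -0.12), where 17.0% of all genes were called. With Cinnamon 3 rose and 3 fell (-0.06), where 22.5% of all genes were called. With Astragalus 2 rose and 2 fell (4.4% of all genes), with Cnidium 1 rose and 1 fell (1.32%), and with Samul-tang 2 fell (4.12%). The PI3K regulatory subunit gene PIK3R2 had 88.4 ± 1.74 CPM with Sagunja-tang, against 119 ± 3.86 CPM in vehicle (log2 -0.43 ± 0.08, adjusted p = 8.42e-05 by edgeR). The adaptor gene IRS2 fell with Sagunja-tang (19.9 ± 1.48 CPM, against 25.2 ± 1.41 CPM; -0.34 ± 0.07) and rose with Cinnamon (33.6 ± 0.510 CPM; 0.41 ± 0.07). FOXO1, a transcription factor held in check by AKT, fell with Sagunja-tang (log2 -0.38 ± 0.09), and FOXO4 rose with Cinnamon (11.0 ± 0.628 CPM, against 6.72 ± 0.426 CPM; 0.72 ± 0.10).

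Among 9 secreted proteins related to the binding proteins, CCN2, a matrix protein gene, fell in all 6 extracts at 500 µg/mL, most with Cinnamon (55.5 ± 4.41 CPM, against 191 ± 3.24 CPM in vehicle; log2 -1.78 ± 0.12, adjusted p = 1.83e-15 by edgeR). It was also called lower against vehicle in all 6 at 100 and at 20 µg/mL (log2 -0.82 to -0.51 and -0.71 to -0.55), and between 500 and 20 µg/mL of an extract it was called with Cinnamon alone among the 6 (-1.07 ± 0.12). CCN1 rose with Sagunja-tang (538 ± 18 CPM, against 350 ± 3.75 CPM; 0.62 ± 0.10) and Samul-tang (491 ± 12.4 CPM; 0.49 ± 0.11). Of 3 IGF2 mRNA binding protein genes, IGF2BP1 and IGF2BP2 fell with Cinnamon (log2 -0.39 and -0.30) and Sagunja-tang (-0.32 and -0.29). Of 10 genes that sort mannose 6-phosphate cargo with IGF2R, 2 rose and 1 fell with Cinnamon (22.5% of all genes called) and 2 fell with Sagunja-tang (17.0%), all by 0.36 or less in log2. Of 9 markers of fibroblasts and smooth muscle, 6 fell with Cinnamon (22.5% of all genes called) and 7 with Sagunja-tang (17.0%), the extracts with which IGFBP5 fell. Among them was ACTA2 (73.9 ± 1.75 CPM with Cinnamon and 63.1 ± 0.857 CPM with Sagunja-tang, against 138 ± 4.78 CPM in vehicle). With Samul-tang, where IGFBP5 lay above vehicle and was not called, 2 fell (4.12%), ACTA2 (log2 -0.41) and COL1A1 (-0.32). With Astragalus 1 fell (4.4%), and none was called with Rehmannia (2.46%) or Cnidium (1.32%). The 9 markers summed to 4662 to 5426 CPM with Cinnamon and 5147 to 5169 CPM with Sagunja-tang, against 7000 to 7038 CPM in vehicle. Of 4 epithelial markers, EPCAM and CDH1 had medians under 1 CPM, and the keratin genes KRT18 (log2 -1.58 and -1.08) and KRT8 (-0.69 and -0.87) fell with Cinnamon and with Sagunja-tang. Of 13 astrocyte and glioma markers, 9 passed the filter. Of these 1 rose and 3 fell with Cinnamon, the rise being ALDOC (log2 1.59), and 4 fell with Sagunja-tang. With Rehmannia 2 fell (2.46% of all genes called) and with Samul-tang 1 (4.12%). The 13 markers summed to 8260 to 8871 CPM with Cinnamon and 7952 to 8275 CPM with Sagunja-tang, against 9073 to 9338 CPM in vehicle. Whether these markers have a part in the IGFBP5 values was not tested.

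Genes with the most similar pattern were looked for by the Pearson r of group means of log2(CPM + 1) over the 25 groups, among 10936 genes with a mean of at least 5 CPM, and are given as a description. The groups share the vehicle scale and code sets, and genes were picked as the highest r. Nearest to IGFBP1 were THBD, which encodes thrombomodulin (r = 0.92), ABCG2, a drug efflux transporter (0.91), and GREM1, a BMP antagonist (0.88). Near to IGFBP3 were GLIPR1 (0.90) and the N-cadherin gene CDH2 (0.87). Nearest to IGFBP5 were GNAO1, a G protein subunit (0.89), the integrin gene ITGB8 (0.89) and the ankyrin gene ANK1 (0.89). Between members, r ran from -0.61 (IGFBP4 with IGF2R, and IGFBP5 with IGFBP7) to 0.77 (IGFBP6 with IGFBP7) over the 36 pairs, and these values include replicate 1 of Sagunja-tang 20 µg/mL.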

How the data were processed

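RNA from SW1783 cells was sequenced as directional mRNA libraries with paired-end reads, per the labels' protocols. Per the submitters' processing notes RSEM 1.3.3, STAR 2.7.3a, Trim Galore 0.6.5 and FastQC 0.11.9 were used, and the build was hg38 (GRCh38). The deposited values are expected counts per gene made by the authors. They were rounded to whole numbers (90.67% were whole already). Of 279 columns, 60 matched the labels and 219 were not used. Symbols were found for 56558 genes and GENCODE release 29 positions for 57055.

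Genes were filtered with filterByExpr, which left 17516, and scaled with TMM (factors 0.934 to 1.03). All 19 groups with replicates (54 libraries) entered 1 edgeR 4.0.16 quasi-likelihood fit (R 4.3.3) with a coefficient per group. The fit had 35 residual degrees of freedom, and its common biological coefficient of variation was 0.0947. Standard errors come from the F statistic with this pooled spread. P was adjusted by Benjamini-Hochberg within each of 30 comparisons. These set each replicated dose against vehicle (18), 500 against 20 µg/mL within an extract (6), extracts of 1 code set against each other at 500 µg/mL (3) and their dose effects against each other (3). Paeonia and Angelica, with 1 library a dose, stayed outside the fit, and their log2(CPM + 1) was set beside that of the vehicle mean with no p. The calls were repeated with DESeq2 1.42.0, its size factors in edgeR, library size alone, no low-count filter, only the compared groups, a replicate block, and each library left out. The edgeR step was tested on simulated data.

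The replicate numbers were checked in 27 comparisons by the correlation of deviations within numbered pairs (-0.303 to 0.28). All pairs exceeded 0.1 in 3 comparisons, Sagunja-tang 100 µg/mL against vehicle and Astragalus and Cnidium 500 against 20 µg/mL. None of 51 replicate pairs was a copy, with the lowest scatter ratio at 0.619, where counting noise alone gives 0.45. Intervals for single libraries cover counting error only. The vehicle concentration is that of the sample labels, and the series text states another. Promoter windows are from RefSeq.

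The members and the 10 lists (108 genes) were chosen with earlier results of these data known. All 9 members were described. From each list the text could name up to 3 called genes of largest change with a mean of at least 1 CPM, and like-patterned genes were the 3 of highest r per called binding protein, of which 1 is not reported here.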

Additional observations from a re-analysis of the deposited data

Results flagged for a closer look

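The differences in dose effect, 500 against 20 µg/mL, between extracts of the same code set are listed here because the difference itself passed the test for 5 of 27 gene-by-pair tests. IGFBP1 rose more with Cinnamon than with Astragalus, by 0.98 ± 0.17 in log2 (adjusted p = 3.26e-05 by edgeR). Within Cinnamon all 3 libraries at 500 µg/mL lay above all 3 at 20 µg/mL, and within Astragalus the doses overlapped. In the same pair the dose effects of IGFBP3 and IGFBP5 differed by -0.30 ± 0.10 (adjusted p = 0.0368) and -0.67 ± 0.21 (adjusted p = 0.0286). The IGFBP3 difference was lost without any of 6 single libraries (adjusted p = 0.0614 to 0.213), namely Cinnamon 500 µg/mL replicates 1 and 3, Cinnamon 20 µg/mL replicate 1, Astragalus 500 µg/mL replicate 1 and Astragalus 20 µg/mL replicates 2 and 3. It was lost too with only the compared groups in the fit (0.0856) and without the low-count filter (0.228). The IGFBP5 difference was lost without the low-count filter (0.107) and without any of 5 (adjusted p = 0.0526 to 0.121), namely Cinnamon 500 µg/mL replicates 2 and 3, Cinnamon 20 µg/mL replicate 1, Astragalus 500 µg/mL replicate 1 and Astragalus 20 µg/mL replicate 3. Without Sagunja-tang 20 µg/mL replicate 1 the IGF2R difference was called as well (0.27, adjusted p = 0.00567).

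Between Sagunja-tang and Samul-tang the dose effects differed by -1.10 ± 0.19 for IGFBP1 (adjusted p = 0.000173) and by 0.63 ± 0.11 for IGFBP3 (adjusted p = 0.000338). Without Sagunja-tang 20 µg/mL replicate 1 these were -0.92 and 0.53 (adjusted p = 0.000398 and 0.000164), but with only the compared groups in the fit, that replicate included, both were lost (adjusted p = 0.395 and 0.724). Without that replicate IGFBP5 (-0.81, adjusted p = 7.77e-05) and IGF1R (-0.48, adjusted p = 0.00716) were called as well. Between Rehmannia and Cnidium the IGFBP1 difference was 0.65 ± 0.17, not called at adjusted p = 0.293, but called without Sagunja-tang 20 µg/mL replicate 1 (0.66, adjusted p = 0.0226), with only the compared groups in the fit (adjusted p = 0.00338) and without the low-count filter (0.0254).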

How the results depend on the processing

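Of the 47 calls of members over the 30 comparisons, 27 were kept with each compared library, and replicate 1 of Sagunja-tang 20 µg/mL, left out in turn, and 20 were lost without at least 1 of these. A further 5 were lost under another setting alone, so that 25 were lost under at least 1 setting and 22 under none, and 2 reversed. By setting, 13 were lost with only the compared groups in the fit, 10 without the low-count filter and 3 with library size alone. The reversals were IGFBP4 and IGFBP6 with Sagunja-tang 20 µg/mL against vehicle, at -0.07 and -0.02 without its replicate 1. Leaving out each compared library in turn gave -0.07 to 0.56 for IGFBP4 and -0.02 to 0.69 for IGFBP6, the highest without replicate 3 of the same group. With only the compared groups in the fit, 14 of 54 tests of the members were called at 100 µg/mL against vehicle (4 in the full fit), and at 500 µg/mL 19 (13). Without the low-count filter 5 of 54 were called at 20 µg/mL (8). Leaving out 1 library at a time gave 10 (without vehicle replicate 1) to 16 calls at 500 µg/mL against vehicle, 2 (without Cinnamon 500 µg/mL replicate 3) to 8 at 100 µg/mL and 5 (without vehicle replicate 1) to 10 (without Sagunja-tang 20 µg/mL replicate 3) at 20 µg/mL. It gave 7 (without Sagunja-tang 500 µg/mL replicate 1) to 13 between 500 and 20 µg/mL, 7 to 11 between extracts, and 3 to 9 for differences of dose effects, the lowest in both without Astragalus 500 µg/mL replicate 1. Each highest count for which no library is named came without Sagunja-tang 20 µg/mL replicate 1. Over all genes more were called without it too, such as 2297 with Samul-tang 500 µg/mL against vehicle (722 with it). Between Cinnamon and Astragalus at 500 µg/mL there were 7260 (4809). Fewer were called with Sagunja-tang 20 µg/mL against vehicle (1927, and 3860 with it) and with Sagunja-tang 500 against 20 µg/mL (1157 and 3614). The replicate block gave 13, 5 and 8 calls against vehicle at 500, 100 and 20 µg/mL, 9 between doses, 8 between extracts and 6 for differences of dose effects, and within code sets 9, 8 and 5 for the last 3. In the 3 comparisons where the numbers paired the libraries it changed no call of a member. DESeq2 gave 13, 6, 10, 10, 8 and 6 calls in the same order. Most calls near the threshold, such as IGFBP3 with Cnidium and Rehmannia, rest on changes of about 0.3 in log2, and the cause of each lost call was not tested. The 17 to 57 counts of IGFBP2 limit what could be seen of it.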
